A study of Mus musculus with 12 samples.

Results

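The genes described here are 10 of the 26409 genes in the hippocampal expression table: *Lif*, *Socs3*, *Gfap*, *Serpina3n*, *Timp1*, *Cd44*, *Ptx3*, *Hspb1*, *Cxcl10* and *Ccl2*. They were picked by symbol because they stood high in 1 library, male *Dek* cKO replicate 3, so their values in that library against the other 11 are a description of the choice and carry no test. Each was matched by its Ensembl identifier to the GENCODE M21 annotation of GRCm38. All 10 had a value above 0 in every library and a mean of at least 0.1 TPM, with or without male *Dek* cKO replicate 3, and so all were among the 18197 genes tested.

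When brain tissue is injured, astrocytes and microglia become reactive: astrocytes enlarge, fill with intermediate filament protein and secrete protease inhibitors, matrix proteins and chemokines. A route to that state runs from cytokines of the interleukin-6 family, such as leukemia inhibitory factor, through the shared receptor chain gp130 to the kinase JAK and the transcription factor STAT3. STAT3 then induces its own brake, SOCS3, together with acute phase genes. In the hippocampus, GFAP-positive astrocytes are abundant even in health, so the filament gene has a high resting level.

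RNA came from the dissected hippocampus of 12 mice on a C57Bl/6 background, aged 6 to 12 months by the study's methods. By the labels of the samples, and not by those methods, the mice were killed after behaviour tests. There were 3 libraries in each of 4 groups, female WT, male WT, female *Dek* cKO and male *Dek* cKO. *Dek* encodes a chromatin-bound DNA-binding protein. The cKO mice lack exons 3 and 4 of *Dek* in all tissues, because CMV-Cre, which acts in the whole embryo, deleted them in the germline and was then bred out. The line was kept by mating heterozygotes. No drug treatment or lesion is described for any group in the sources used here. The 3 female WT libraries have another name prefix than the other 9, and what that prefix stands for is not given in the sources used here.

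The values are in TPM, a measure of transcript abundance that is corrected for transcript length and library depth, so levels of different genes can be set side by side within a library. Read depth cannot be recovered from them, and no counting error is given. *Dek* lay between 44.2 and 51.9 TPM in the 6 WT libraries and between 5.55 and 9.25 TPM in the 6 cKO libraries, in the direction of every genotype label. Sex labels did not hold for 2 libraries. Summed over 4 Y-linked genes, the library labelled female cKO replicate 3 reached 108 TPM, against 0.613 to 1.77 TPM in the other 5 with a female label. The one labelled male cKO replicate 1 reached 0.642 TPM, against 96.3 to 125 TPM in the other 5 with a male label. Both kept their labels here, and results within a sex are given with and without them. In male cKO replicate 3 the mitochondrial genes summed to 170376 TPM, below the 178668 to 203068 TPM of the other 11 libraries. Its part in the differences described here was not tested.

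For 9 of the 10 genes (*Ccl2* was the exception) RefSeq gave a start site in the GRCm38.p6 build, and the 250 bases before it were searched on both strands for 5 short motifs. These were the STAT element TTCNNNGAA, the AP-1 element TGANTCA, the heat shock element GAANNTTC, the interferon element TTTCNNTTTC and the NF-kB element. At least 1 match was held by 4 of these genes, and their windows are shown. The share of all windows with a match to any of the 5 motifs was not counted, so the 4 have no background share. Elements of these kinds are known to pass cytokine, stress and inflammatory signals to DNA, but whether these matches do so was not tested. The windows read 5′ to 3′ along the gene, with matches in capitals. They cover chr11:117969367-117969616, minus strand for *Socs3*, chr11:4257318-4257567, plus strand for *Lif*, chr5:92348890-92349139, minus strand for *Cxcl10* and chr5:135887669-135887918, plus strand for *Hspb1*.
*Socs3*: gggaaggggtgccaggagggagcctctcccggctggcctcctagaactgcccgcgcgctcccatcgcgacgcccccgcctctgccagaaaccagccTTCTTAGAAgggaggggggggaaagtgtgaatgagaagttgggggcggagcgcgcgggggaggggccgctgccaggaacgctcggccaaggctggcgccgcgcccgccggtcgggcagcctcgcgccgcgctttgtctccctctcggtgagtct
*Lif*: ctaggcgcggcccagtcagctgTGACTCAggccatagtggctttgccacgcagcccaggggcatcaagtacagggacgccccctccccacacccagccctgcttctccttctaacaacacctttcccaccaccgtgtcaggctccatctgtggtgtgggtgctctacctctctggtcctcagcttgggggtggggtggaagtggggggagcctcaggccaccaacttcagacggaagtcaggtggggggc
*Cxcl10*: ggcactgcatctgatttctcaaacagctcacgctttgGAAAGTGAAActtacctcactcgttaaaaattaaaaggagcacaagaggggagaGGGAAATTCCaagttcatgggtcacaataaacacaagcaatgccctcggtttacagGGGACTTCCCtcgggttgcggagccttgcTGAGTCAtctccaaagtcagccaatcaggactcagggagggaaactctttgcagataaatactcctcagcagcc
*Hspb1*: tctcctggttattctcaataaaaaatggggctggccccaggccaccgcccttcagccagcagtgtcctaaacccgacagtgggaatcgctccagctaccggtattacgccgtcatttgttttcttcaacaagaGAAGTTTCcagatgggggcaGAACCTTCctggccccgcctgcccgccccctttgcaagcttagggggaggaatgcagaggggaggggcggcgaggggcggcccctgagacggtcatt

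*Socs3* held 1 STAT element that began 154 bases before the start, and *Lif* held 1 AP-1 element at 228 bases. In the *Cxcl10* window the capitals mark an interferon element on the opposite strand at 213 bases, NF-kB elements at 159 and 103 bases and an AP-1 element at 74 bases before the start. *Hspb1* held 2 heat shock elements, at 117 and 97 bases. Among 32851 windows of the same length, 7.02% held the STAT element, 6.75% the AP-1 element, 6.69% the heat shock element, 3.9% the NF-kB element and 2.98% the interferon element. A match describes the letters only. No matches overlapped. The windows of *Gfap*, *Serpina3n*, *Timp1*, *Cd44* and *Ptx3* held no match.

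All 10 genes had their highest value of the 12 libraries in male cKO replicate 3, as did 19.5% of all genes tested. All 10 were at least 2-fold above the median of the other 11 libraries there (5.57% of all genes, while 4.24% were at least 2-fold below it) and all 10 at least 4-fold (2.04%), and each was also at least 2-fold above the highest of the other 11 (1.03%). These shares were fixed by the choice of the genes. On the scale of log2(TPM + 0.1) the difference from the median of the other 11 had a median of 3.27 over the 10 genes and of 0.000211 over all genes tested. Together the 10 genes summed to 1750 TPM in male cKO replicate 3, to 547 TPM in the library labelled female cKO replicate 3 and to 265 to 357 TPM in the other 10. *Gfap* made up most of these sums. It had 1267 TPM in male cKO replicate 3 and 437 TPM in the library labelled female cKO replicate 3.

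**Figure D1:**
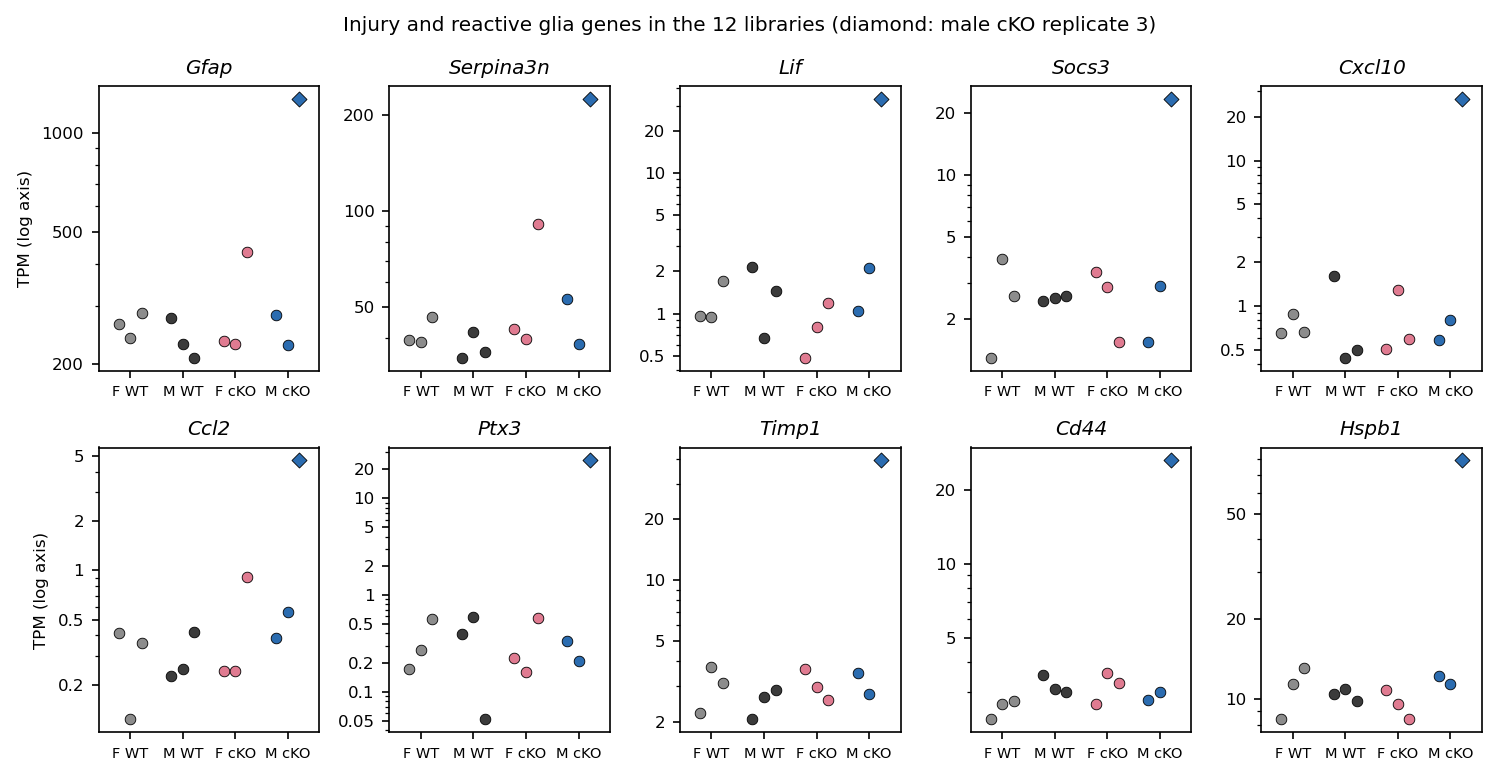
TPM on a log axis of the 10 genes in the 12 libraries, 1 panel for each gene. Each point is 1 library, F and M stand for the labelled sex and the diamond is male cKO replicate 3. The diamond is the highest point in all 10 panels, and in the panels of *Gfap*, *Serpina3n* and *Ccl2* the third female cKO point is the next highest.

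Leukemia inhibitory factor, encoded by *Lif*, is a cytokine that signals through its own receptor paired with gp130. *Lif* measured 0.961, 0.940 and 1.70 TPM in female WT, 2.16, 0.667 and 1.44 in male WT, 0.484, 0.808 and 1.18 in female cKO and 1.04, 2.11 and 33.6 in male cKO. The value of 33.6 TPM in male cKO replicate 3 was 32.2 times the median and 15.6 times the highest of the other 11, in which the WT and cKO ranges overlapped. Of the 7 tested cytokines that use gp130, 3 were at least 2-fold above the median in that library. The other 2 were *Clcf1*, a ligand of the ciliary neurotrophic factor receptor, at 2.88 TPM against 0.434 to 0.800, and *Il11*, a cytokine related to interleukin-6, at 1.27 TPM against 0.168 to 0.8305. *Il6* itself was listed at 0 there.

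Among 6 receptor genes of the family, *Osmr*, the oncostatin M receptor chain, was the only one at least 2-fold above the median, at 10.8 TPM against 1.89 to 3.14. The shared chain *Il6st* had 14.9 TPM against 9.96 to 12.8. The leukemia inhibitory factor receptor *Lifr*, named after its value was seen, had 15.2 TPM against 11.9 to 13.4. The ligand thus stood far above the range of the other libraries. Its receptor chains also lay above their ranges, though within 1.36 times the median. *Osm*, the gene of oncostatin M that lies 16.5 kb from *Lif*, had 0.203 TPM, inside the range of 0 to 0.264 TPM, and its mean passed the filter only with that library included.

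*Socs3* encodes a protein that binds gp130 and JAK and shuts off the signal. *Socs3* measured 1.29, 3.90 and 2.57 TPM in female WT, 2.44, 2.53 and 2.59 in male WT, 3.37, 2.86 and 1.54 in female cKO and 1.54, 2.90 and 23.5 in male cKO. Male cKO replicate 3 held 9.15 times the median and 6.02 times the highest of the other 11, and the lowest of those 11 was a WT library. Among 13 feedback inhibitors of this pathway, 2 were at least 2-fold above the median, *Socs3* and its relative *Socs1*, at 1.17 TPM against 0 to 0.690. *Socs2* had 38.0 TPM against 21.8 to 26.9, above the other libraries but by less than 2-fold. *Stat3*, the transcription factor itself, had 60.6 TPM against 23.3 to 36.4 and was the only one of 7 tested kinases and STATs past 2-fold.

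Of 12 genes known to be induced by STAT3, 6 were at least 2-fold above the median in male cKO replicate 3, and 5 of those were outside the 10 genes. *Bcl3*, a partner of NF-kB, stood highest at 7.22 TPM against 0.319 to 1.57. *Tnfrsf1a*, a receptor for tumour necrosis factor, had 23.4 TPM against 6.71 to 11.5. *Junb*, on the same list and named after its value was seen, had 42.1 TPM, inside its range of 26.7 to 76.0 TPM.

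*Gfap* encodes the intermediate filament protein of astrocytes and was the most abundant of the 10 genes in every library. *Gfap* measured 265, 239.9 and 285 TPM in female WT, 276, 229 and 208 in male WT, 234, 229 and 437 in female cKO and 280.0, 229 and 1267 in male cKO. The highest library had 5.28 times the median of the other 11, and the next highest value was in the library labelled female cKO replicate 3, followed by female WT replicate 3 at 285 TPM. *Vim*, the second filament gene of reactive astrocytes, had 90.8 TPM against 25.1 to 52.7, and here too the top of the range was the library labelled female cKO replicate 3. *Nes*, a filament of neural progenitors and reactive astrocytes, had 5.75 TPM against 3.21 to 5.05.

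*Serpina3n* encodes a secreted inhibitor of serine proteases that rises in reactive astrocytes. *Serpina3n* measured 39.4, 38.8 and 46.7 TPM in female WT, 34.7, 42.0 and 36.1 in male WT, 42.9, 39.8 and 91.6 in female cKO and 52.9, 38.4 and 225 in male cKO. Male cKO replicate 3 had 5.67 times the median and 2.46 times the highest of the other 11, again the library labelled female cKO replicate 3. The mouse genome holds a cluster of close copies of this gene, and reads from them may be shared between copies, so the values of single copies are uncertain. Of 5 copies that passed the filter, all 5 were at least 2-fold above the median in male cKO replicate 3. Among them *Serpina3i* had 1.92 TPM against 0.0768 to 0.313 and *Serpina3h* 2.09 TPM against 0.0725 to 0.699, both far below *Serpina3n*.

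*Timp1* encodes a secreted inhibitor of matrix metalloproteinases. *Timp1* measured 2.21, 3.72 and 3.12 TPM in female WT, 2.05, 2.65 and 2.87 in male WT, 3.65, 2.97 and 2.55 in female cKO and 3.47, 2.74 and 39.2 in male cKO. Male cKO replicate 3 stood 13.7-fold above the median and 10.5-fold above the highest of the other 11, which ranged over less than 2-fold. Of the 5 metalloproteinase inhibitors, *Timp1* alone was past 2-fold. *Reck*, a membrane-bound inhibitor, had 4.61 TPM, below its range of 6.88 to 10.3 TPM, and *Timp4* had 8.42 TPM against 9.43 to 11.5. Of 14 tested proteases of the matrix, 2 were past 2-fold. These were *Adamts1*, which cleaves proteoglycans, at 28.4 TPM against 6.12 to 11.7, and *Mmp19* at 2.03 TPM against 0.391 to 1.10.

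*Cd44* encodes the main receptor for hyaluronan, a sugar polymer of the matrix, and marks reactive and fibrous astrocytes. *Cd44* measured 2.32, 2.70 and 2.77 TPM in female WT, 3.53, 3.09 and 3.02 in male WT, 2.68, 3.59 and 3.27 in female cKO and 2.79, 3.01 and 26.5 in male cKO. It varied least of the 10 genes over the other 11 libraries, with an SD of 0.18 on the log2 scale, and stood 8.80-fold above their median in male cKO replicate 3. *Has2*, an enzyme that makes hyaluronan, was the only other one of 11 genes of that group past 2-fold, at 0.978 TPM against 0.122 to 0.317. *Slc1a2*, the glutamate transporter gene 20.4 kb from *Cd44*, had 513 TPM, inside its range of 452 to 562 TPM.

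*Ptx3* encodes a secreted pattern recognition protein of the pentraxin family and is a classical gene of astrocytes after ischemic injury. *Ptx3* measured 0.171, 0.272 and 0.569 TPM in female WT, 0.395, 0.587 and 0.0516 in male WT, 0.226, 0.160 and 0.582 in female cKO and 0.331, 0.206 and 24.6 in male cKO. With a median of 0.272 TPM it was the least expressed of the 10 in the other 11 libraries, and its 24.6 TPM in male cKO replicate 3 was 90.6 times that median, the highest ratio of the 10. The SD over the other 11 was 0.69 on the log2 scale, the widest of the 10, so ratios to so low a median are imprecise. *Nptx2*, a neuronal pentraxin of excitatory synapses, had 44.1 TPM against 11.3 to 24.4.

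*Hspb1* encodes the small heat shock protein HSP27, a chaperone that binds filaments. *Hspb1* measured 8.38, 11.4 and 13.1 TPM in female WT, 10.5, 10.96 and 9.80 in male WT, 10.8, 9.55 and 8.38 in female cKO and 12.2, 11.4 and 79.2 in male cKO. The level in male cKO replicate 3 was 7.31 times the median and 6.03 times the highest of the other 11. Of 7 tested small heat shock genes 1 other was past 2-fold, *Hspb6*, at 17.5 TPM against 3.83 to 6.09, while the lens crystallin gene *Cryab* had 79.9 TPM, within its range of 69.5 to 129 TPM. Of 10 larger or inducible heat shock genes, *Hmox1*, the heme-degrading enzyme, was past 2-fold at 19.4 TPM against 4.90 to 8.38. *Hspa1a*, the classical heat-induced chaperone, had 5.80 TPM and lay below its range of 7.94 to 12.4 TPM.

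*Cxcl10* encodes a chemokine that attracts T cells through the receptor CXCR3. *Cxcl10* measured 0.646, 0.873 and 0.663 TPM in female WT, 1.61, 0.438 and 0.498 in male WT, 0.508, 1.28 and 0.588 in female cKO and 0.584, 0.797 and 26.5 in male cKO. Male cKO replicate 3 had 41.0 times the median and 16.5 times the highest of the other 11. Its neighbours *Cxcl9*, 18.6 kb away, and *Cxcl11*, 10.7 kb away, use the same receptor. They had 0.0786 and 0.207 TPM and lay inside their ranges of 0.0270 to 0.176 and 0.0485 to 0.464 TPM. Of 6 tested CXC chemokines *Cxcl10* was the only one at least 2-fold above the median, and *Cxcl5*, which attracts neutrophils, was 2-fold below it, at 0.567 TPM against 0.798 to 2.47.

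*Ccl2* encodes the chemokine that draws monocytes through CCR2. *Ccl2* measured 0.414, 0.123 and 0.358 TPM in female WT, 0.228, 0.248 and 0.419 in male WT, 0.244, 0.242 and 0.915 in female cKO and 0.384, 0.559 and 4.69 in male cKO. At 4.69 TPM it had the lowest level of the 10 in male cKO replicate 3, 13.1 times the median and 5.12 times the highest of the other 11. In the same cluster on chromosome 11, 2 genes had larger differences on the log2 scale. *Ccl7*, 8.26 kb from *Ccl2*, had 3.76 TPM against 0 to 0.4999, and *Ccl12*, 64.4 kb away, had 22.9 TPM against 0.363 to 2.14. *Ccl11* and *Ccl8*, also in the cluster, had 0.0784 and 0.424 TPM and lay inside their ranges of 0 to 0.437 and 0 to 0.968 TPM. Of 10 CC chemokines 4 were past 2-fold. The monocyte receptor *Ccr2* had 0.172 TPM, below its range of 0.215 to 0.717 TPM.

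Reactive astrocyte genes as a class followed the 10 genes in part. Of 13 genes shared by reactive astrocytes in several settings, 11 were at least 2-fold above the median in male cKO replicate 3, and of the 7 of them outside the 10 genes 5 were. Among those 5, *S1pr3*, a receptor for sphingosine phosphate, had 21.6 TPM against 3.40 to 4.53, and *Aspg* had 12.2 TPM against 1.86 to 3.84. The fifth, *Lcn2*, was past 2-fold but inside the range of the other 11 libraries, so 4 of the 7 were highest in male cKO replicate 3. *Cp* and *Steap4* were not past 2-fold and lay inside their ranges. Of 11 genes tied to astrocytes after ischemic injury 6 were past 2-fold, and of the 10 left without *Ptx3*, which is in the set, 5 were. *Emp1*, a membrane protein, had 7.08 TPM against 0.750 to 2.38, and *Tgm1*, a transglutaminase, 0.450 TPM against 0 to 0.374. Of 11 genes tied to astrocytes after endotoxin 2 were, both induced by interferon: *Gbp2* at 13.0 TPM against 1.49 to 3.67 and *Iigp1* at 4.27 TPM against 0.690 to 1.30. These lists were drawn up with values of these libraries known, and no list was tested as a whole.

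Neurons carry injury genes of their own, and 6 of 10 tested were past 2-fold in the same library. *Npy*, a neuropeptide of hippocampal interneurons, had 529 TPM against 108 to 141. *Atf3*, a stress transcription factor, had 3.22 TPM against 0 to 1.75, and *Gadd45g*, a growth arrest gene, 49.7 TPM against 13.6 to 23.4. Of 14 immediate early genes 2 were past 2-fold, *Fosl1* at 1.09 TPM against 0 to 0.113 and *Fos* at 25.3 TPM, inside its range of 2.58 to 25.7 TPM. *Npas4*, a gene of neuronal activity, was over 2-fold below its median, at 2.42 TPM against 2.79 to 11.4. Of 12 early cytokine and endothelial activation genes 4 were past 2-fold. *Tnf*, the tumour necrosis factor gene, had 0.631 TPM against 0 to 0.297, and *Il1b*, the interleukin-1 beta gene, 1.36 TPM, inside its range of 0.301 to 1.68 TPM. *Il18* was over 2-fold below its median, at 0.947 TPM against 0 to 5.16. *Fosl1*, *Tnf* and *Tgm1* averaged under 0.1 TPM in the other 11 libraries and passed the filter only through male cKO replicate 3. Leaving them out, 1 of 13 immediate early genes, 3 of 11 early cytokine and endothelial activation genes and 5 of 10 genes tied to astrocytes after ischemic injury were past 2-fold. The last count still includes *Ptx3*, which was chosen for its value in that library.

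**Figure D2:**
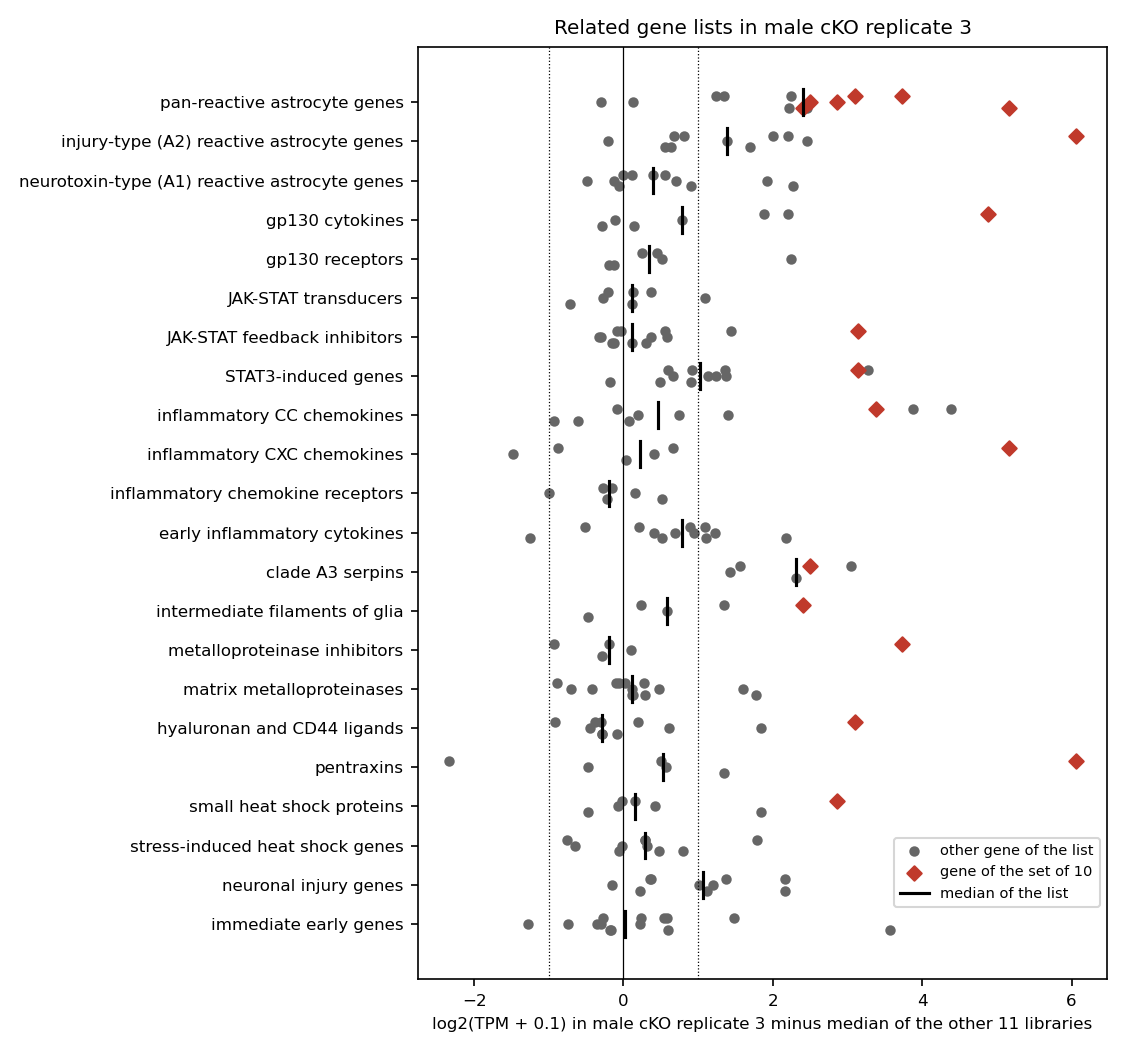
Difference in log2(TPM + 0.1) between male cKO replicate 3 and the median of the other 11 libraries for the tested genes of 22 related lists. Red diamonds are genes of the set of 10, grey points other genes, short bars list medians and dotted lines mark 2-fold. The list medians, which include genes of the set of 10, run from -0.285 for hyaluronan and CD44 ligands to 2.40 for the genes shared by reactive astrocytes. Over the 7 genes of that last list outside the set the median was 1.34. The highest median outside the set was 1.93, for 4 clade A3 serpins, the copies of *Serpina3n*.

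Markers of the cell types that a hippocampal sample could hold were summed in every library, and the number of cells of a type cannot be told apart from RNA per cell. The 13 astrocyte markers summed to 2640 TPM in male cKO replicate 3, below the 3152 to 3560 TPM of the other 11 libraries. None of the 13 was at least 2-fold above or below the median. Their median log2 difference was -0.0978, and 2 of the 13 were highest in male cKO replicate 3. *Aqp4*, the water channel of astrocyte endfeet, stood above its range at 99.4 TPM against 43.3 to 57.3. *Gja1*, the connexin of astrocyte gap junctions, and *Glul*, glutamine synthetase, stood below theirs, at 68.6 TPM against 116 to 151 and at 555 TPM against 889 to 1145. The sum of these markers was thus lower in the library where *Gfap* was 5.28 times the median. Abundant genes such as *Glul* weigh most in that sum, and the markers did not all fall.

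The 12 microglial markers summed to 493.0 TPM against 437 to 559 TPM, inside the range. *P2ry12*, the purine receptor of resting microglia, was the 1 marker over 2-fold below its median, at 8.21 TPM against 16.5 to 29.2. The 10 markers of activated microglia and macrophages summed to 52.9 TPM against 45.4 to 67.5 TPM. Of the 9 tested, 1 was at least 2-fold above the median and 0 below it, with a median log2 difference of 0.411. *Msr1* passed the filter only through male cKO replicate 3, and 1 of 8 was past 2-fold without it. Summed markers of blood-borne leukocytes lay inside the range of the other libraries. Those of neutrophils and monocytes summed to 2.10 TPM against 1.71 to 8.12 TPM, with 3 of 7 tested markers at least 2-fold below the median and 1 at least 2-fold above it, *S100a9*, at 0.634 TPM against 0 to 3.89. Of these markers *Ly6c2*, *Elane*, *Retnlg*, *Ly6g* and *Plac8* were listed at 0. The lymphocyte markers summed to 2.71 TPM against 1.95 to 3.88 TPM, with *Ms4a1*, *Nkg7* and *Gzmb* among those listed at 0. A value of 0 in this table may be a failed estimate, since *Tyk2*, a kinase that most cells use, was listed at 0 in 10 of the 12 libraries. Erythrocyte genes summed to 799 TPM against 688 to 1547 TPM.

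Markers of vessels and border tissues did not move together. The 8 endothelial markers summed to 173 TPM, below the 207 to 233 TPM of the other 11, and the 8 mural cell markers to 127 TPM against 106 to 172 TPM. Of the mural cell markers 1 was at least 2-fold above the median and 0 below it. Meningeal fibroblast markers summed to 76.7 TPM against 58.4 to 295 TPM, and choroid plexus markers to 1389 TPM against 48.8 to 4505 TPM. Of the 9 meningeal fibroblast markers 4 were at least 2-fold below the median and 0 above it, with a median log2 difference of -0.862. The oligodendrocyte markers summed to 3070 TPM against 2436 to 5048 TPM and the general neuronal markers to 5535 TPM against 5220 to 5900 TPM. Markers of hippocampal neurons summed to 334 TPM, just above the 244 to 332 TPM of the other 11, with *Prox1*, the transcription factor of dentate granule cells, at 4.95 TPM against 1.29 to 2.97. The part of these differences in the levels of the 10 genes was not tested.

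**Figure D3:**
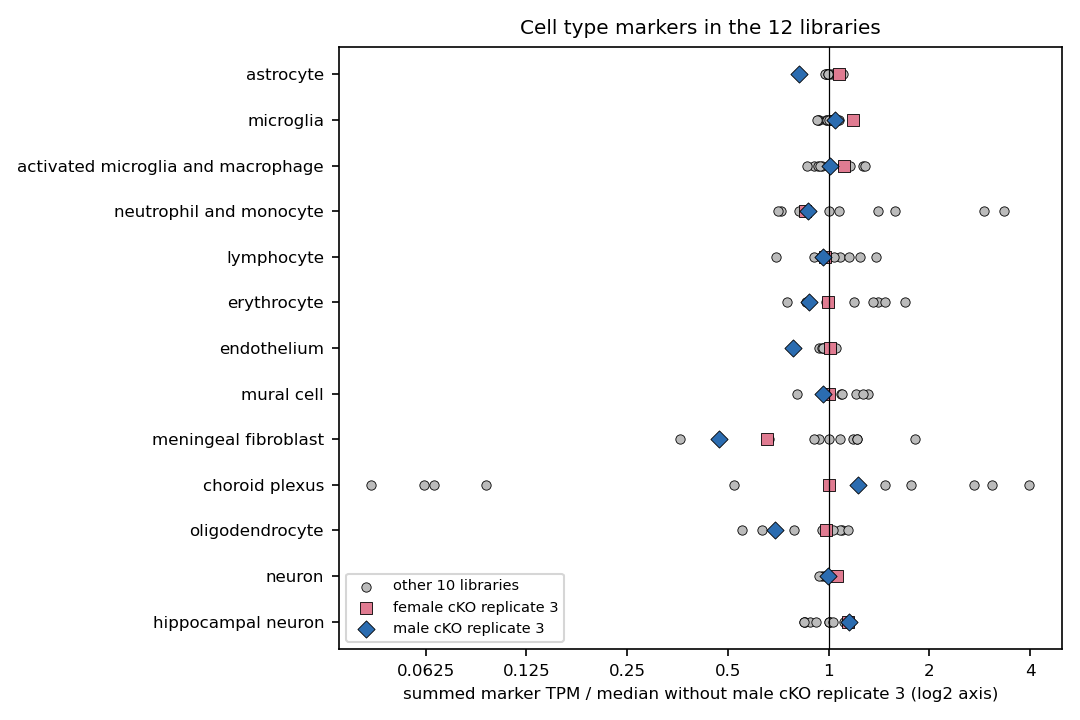
Summed TPM of the markers of 13 cell types in each library, divided by the median of the 11 libraries other than male cKO replicate 3, on a log2 axis. Male cKO replicate 3 lies below all other libraries for astrocyte (2640 TPM) and endothelial (173 TPM) markers and inside their range for the leukocyte markers.

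The comparison that the choice of the genes did not fix is that of genotype without male cKO replicate 3, with 5 cKO against 6 WT libraries. A gene was called when its adjusted p was under 0.05 and its fold change above 1.2. Of 18197 genes 22 were called (0.121%), and none of the 10 genes was among them. With limma (version 3.58.1) 0 of the 10 genes had an unadjusted p under 0.05, a level that 7.14% of all genes passed, and an exact permutation test of each gene gave 0 as well, with a lowest p of 0.13 where 0.00433 was the smallest possible. The log2 fold change, cKO minus WT, was positive for 5 genes and negative for 5, with a median of 0.03, beside 0.02 over all genes. For 0 of the 10 genes did the values of the genotypes separate, as they did for 0.995% of all genes. *Dek* itself fell by 2.67 on the log2 scale (SE 0.09, adjusted p = 2.5e-08).

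*Serpina3n* had the lowest p of the 10. It averaged 53.1 ± 22.3 TPM in cKO (SD, n = 5) and 39.6 ± 4.30 TPM in WT (SD, n = 6), a log2 fold change of 0.35 (SE 0.19, 95% interval -0.08 to 0.77, adjusted p = 0.775 with limma). Without the library labelled female cKO replicate 3 the fold change of *Serpina3n* was 0.13. Among the CMV-named libraries alone, which leave out the female WT, *Serpina3n* had a value of 0.42 with an adjusted p of 0.869. The cKO mean without both high libraries was 43.5 TPM, inside the WT range of 34.7 to 46.7 TPM.

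*Gfap* averaged 282 ± 89.4 TPM in cKO (SD, n = 5) and 250.4 ± 29.6 TPM in WT (SD, n = 6), with a log2 fold change of 0.13 (SE 0.16, 95% interval -0.22 to 0.48, adjusted p = 0.920 with limma). Leaving out the library labelled female cKO replicate 3 turned the sign of *Gfap* to -0.04. Within the CMV-named libraries its value was 0.21 with an adjusted p of 0.936. *Ccl2* had the largest fold change of the 10, 0.45 (SE 0.35, 95% interval -0.309 to 1.201, adjusted p = 0.872), and 0.20 without the same library. The interval of *Ccl2* took in a 2-fold difference.

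The other 7 genes had fold changes between -0.24 and 0.16. *Timp1* had a log2 fold change of 0.16 (95% interval -0.20 to 0.52) and *Cd44* of 0.08 (-0.19 to 0.35). *Hspb1* had -0.03 (-0.29 to 0.24), the narrowest interval of the 10. *Socs3* had -0.07 (-0.68 to 0.54), *Cxcl10* -0.01 (-0.71 to 0.68), *Ptx3* -0.05 (-0.97 to 0.88) and *Lif* -0.24 (-1.02 to 0.53), whose interval also took in a 2-fold difference. Their adjusted p-values in limma ran from 0.908 for *Timp1* to 0.998 for *Cxcl10*. The intervals of *Cd44*, *Hspb1*, *Gfap* and *Timp1* stayed within 1.5-fold, and those of *Lif*, *Ptx3*, *Cxcl10* and *Socs3* were wider.

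With male cKO replicate 3 put back, the comparison of 6 cKO with 6 WT libraries is a description for these genes. Of all genes 27 passed (0.148%) and again 0 of the 10 genes, with 0 at an unadjusted p under 0.05 in limma (6.64% of all genes) and 0 in the exact permutation test. The fold changes were positive for all 10, from 0.46 for *Hspb1* to 0.98 for *Ccl2* on the log2 scale, with a median of 0.65. Standard errors were larger in step, for example 0.12 without and 0.44 with that library for *Hspb1*. The cKO mean of *Gfap* was then 446 ± 410.0 TPM (SD, n = 6) and that of *Lif* 6.53 ± 13.3 TPM, beside 1.31 ± 0.559 TPM in WT. This single library held 94.2% of the summed cKO level of *Ptx3*, 87.6% of *Cxcl10*, 85.6% of *Lif* and 45.9% of *Serpina3n*, the lowest share.

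**Figure D4:**
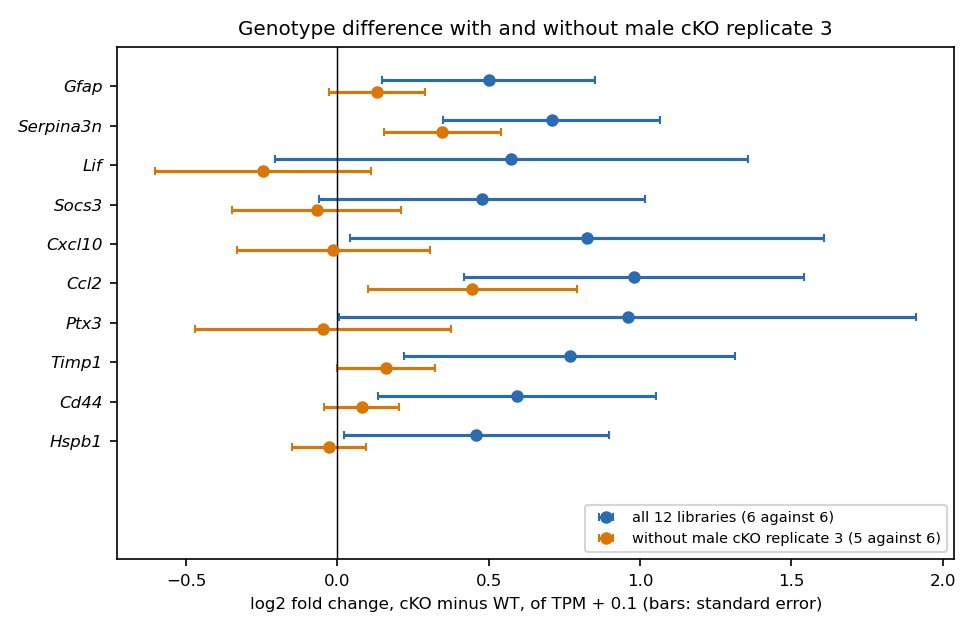
Log2 fold change, cKO minus WT, of the 10 genes in all 12 libraries (blue) and without male cKO replicate 3 (orange), with bars for the standard error. All 10 blue points lie to the right of 0 and the orange points lie between -0.24 (*Lif*) and 0.45 (*Ccl2*).

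Genotype was also compared within each labelled sex without male cKO replicate 3. All female WT libraries and no female cKO library have the other name prefix. Genotype and prefix therefore cannot be told apart in the female values or in the interaction. In females 4 genes of all tested passed (0.022%), in 2 male cKO against 3 male WT also 4 (0.022%), and 0 of the 10 genes passed in either. An unadjusted p under 0.05 was reached by 0 of the 10 in limma in both sexes, against 7.39% and 4.25% of all genes. *Serpina3n* had a log2 fold change of 0.38 in females (adjusted p = 0.797) and 0.27 in males (adjusted p = 1), and *Gfap* 0.12 (adjusted p = 0.938) and 0.10 (adjusted p = 1). Without the 2 libraries of conflicting sex, *Serpina3n* had -0.01 in females and *Gfap* -0.18 in females, while in males they had 0.03 and -0.05. Whether the genotype effect differed between the sexes was tested as an interaction, which passed for 0 of all genes (0.0%), or for 7 without a filter on low values and 4 without a trended prior variance, with 4.32% at an unadjusted p under 0.05 in limma. It was largest for *Lif* at 0.72 (SE 0.70) and *Cd44* at -0.42 (SE 0.23).

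The library labelled female cKO replicate 3 stood apart for part of the set. It was the highest of the 11 libraries other than male cKO replicate 3 for 3 genes, *Gfap*, *Serpina3n* and *Ccl2*, as it was for 11.6% of all genes. All 3 were at least 1.5-fold above the next library there, a limit set after the values were seen, which 0.769% of all genes passed. For the other 7 genes it lay inside the range of the remaining libraries or, for *Hspb1*, at its lower end, so part of the set was high there. *Socs3* had 1.54 TPM in that library and *Hspb1* 8.38 TPM, the lowest *Hspb1* value of the 12. Its summed microglial markers, 559 TPM, were the highest of the 12 libraries. Its astrocyte markers summed to 3470 TPM, inside the range of the WT and other cKO libraries.

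The other top places among the 11 libraries were spread over groups. *Timp1* and *Socs3* were highest in female WT replicate 2, *Hspb1* in female WT replicate 3, *Lif* and *Cxcl10* in male WT replicate 1, *Ptx3* in male WT replicate 2 and *Cd44* in female cKO replicate 2. For 6 of the 10 genes the top place among the 11 fell to a WT library, where 6 of the 11 libraries were WT. The share over all genes was not counted.

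The genes closest to the 10 in pattern were ranked by the gap between male cKO replicate 3 and the highest of the other 11 libraries, on log2(TPM + 0.1), among genes with at least 1 TPM there. The first 10 places went to sequences listed at or near 0 in most other libraries, among them the keratin gene *Krt75* (7.16 TPM against at most 0.119), the pseudogene *Sms-ps* and the T cell receptor segment *Traj58*, with 3 that had no symbol in the annotation. Among genes above 0 in all 12 libraries, a limit added after the values were seen, the first were *Serpina12* (8.74 TPM against 0.0750 to 0.383), *Serpinf2*, the plasmin inhibitor (18.04 TPM against 0.427 to 1.13), and *Ccl12*. *Lox*, an enzyme that cross-links collagen, had 3.37 TPM against 0.123 to 0.403. *Tnfrsf12a*, the receptor for the cytokine TWEAK, had 39.8 TPM against 2.38 to 6.45.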

How the data were processed

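Hippocampal RNA of 12 mice was sequenced as poly-A selected, stranded, paired-end libraries. TPM values were deposited by the authors in 1 table of 26409 genes. Per the study's methods, reads were aligned with STAR to GRCm38 and quantified with Salmon, while the submitters' processing notes name kallisto and mm10, and which of them wrote the table is not given in the sources used here. Column sums were 825750 to 845553 TPM. TPM removes depth, so scarce transcripts have an unknown counting error and shared reads between gene copies were divided by the quantifier. Every column was matched by its library name.

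Symbols came from GENCODE M21 (25245 genes matched, 1164 not). Genes that averaged 0.1 TPM or more were tested on log2(TPM + 0.1) with limma 3.58.1 in R 4.3.3 (trended prior variance, two-sided, Benjamini-Hochberg adjustment over 18197 genes). Fold changes on this scale understate those of genes near 0.1 TPM. A call needed an adjusted p under 0.05 and a fold change over 1.2. Exact permutation tests enumerated all splits and were two-sided. Nothing in the labels says more of the replicates than that each is a separate numbered sample of a group, so p-values measure the spread between these samples. Tables and figures used Python 3.11.15, pandas 2.3.3, numpy 2.4.6, scipy 1.17.1 and matplotlib 3.10.9. The steps were tested on simulated data.

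The 10 genes, the related lists and the markers were chosen with earlier results of these data known. Named genes are all 10, the up to 3 genes of a list with the largest difference in male cKO replicate 3, genes called without it, the 10 genes of the widest gap, *Dek* and Y-linked genes. Neighbours on the chromosome and any other gene were named after their values were seen. Alternatives changed the added value (0.5 or 1 TPM), the filter (none, or a mean of at least 1 TPM), the scaling, the prior variance, the covariates, the replicate block and the libraries. RefSeq windows of GRCm38.p6 gave the sequences.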

Additional observations from a re-analysis of the deposited data

Results flagged for a closer look

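In the 6 cKO libraries, 7 of the 10 genes had a highest value whose gap to the next library took up more of the whole range than Dixon's limit for 6 samples allows. In each case the library was male cKO replicate 3. The values were 39.2 TPM for *Timp1*, 23.5 TPM for *Socs3*, 33.6 TPM for *Lif*, 24.6 TPM for *Ptx3*, 26.5 TPM for *Cxcl10*, 26.5 TPM for *Cd44* and 79.2 TPM for *Hspb1*. The genes were chosen for this library, so these marks restate the choice, and chance alone marks about 1 in 20 groups. *Gfap* (1267 TPM), *Serpina3n* (225 TPM) and *Ccl2* (4.69 TPM) were not marked, though male cKO replicate 3 was their highest library too. Their gaps took up 0.622, 0.509 and 0.588 of the range on the log2 scale, and the smallest marked gap was 0.671 for *Lif*. Gaps in plain TPM were not examined. For each of them the next highest cKO library was the one labelled female cKO replicate 3.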

How the results depend on the processing

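None of the 10 genes was called in any genotype comparison under any alternative that was run, and all 10 stayed at least 2-fold above the median in male cKO replicate 3, except that *Ccl2* was not tested with a mean of at least 1 TPM, which left 9. In that filter 7 genes would pass without male cKO replicate 3. The calls over all genes were less stable. Without male cKO replicate 3 they fell from 22 to 9 in the CMV-named libraries and to 11, 10, 14 and 12 without female cKO replicate 1, female cKO replicate 2, male cKO replicate 1 and male cKO replicate 2. In all 12 libraries they fell from 27 to 17 without a filter, to 10 in the CMV-named libraries, to 14 without female WT replicate 1 or female cKO replicate 1, to 13 without female cKO replicate 2 and to 16 without male cKO replicate 1. Within sexes the 4 calls became 0 to 10 in females and 0 to 17 in males. In females they rose to 10 without female WT replicate 1 or female cKO replicate 3 and fell to 1 or 2 without any other library but male WT replicate 3. In males they fell to 1 without female WT replicate 2, male WT replicate 1 or female cKO replicate 1 and to 2 without male WT replicate 2 or 3. The 0 calls for the difference between the sexes became 3 when female WT replicate 1 was left out, 2 when female cKO replicate 2 was and 1 when female WT replicate 2 or male cKO replicate 2 was. The replicate block gave 1 call in place of 22 and 3 in place of 27, and in the first of these male WT replicate 3 had no partner and added nothing. Libraries that share a number did not deviate together (correlations -0.04 to 0.04, 0 of 6 above 0.1), so the number was not taken as a pairing, and the block called 0 of the 10 genes.

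Signs turned for genes near 0, and the cause was not tested. In the CMV-named libraries without male cKO replicate 3, *Ptx3* had a log2 fold change of 0.0182 and *Cd44* of -0.0687. With each library left out, *Gfap* ran from -0.0402 to 0.193, *Socs3* from -0.242 to 0.0722, *Ptx3* from -0.319 to 0.117, *Cxcl10* from -0.2045 to 0.198 and *Hspb1* from -0.09345 to 0.0502. In all 12 libraries the lowest value came without male cKO replicate 3, and the ranges were -0.0686 to 0.701 for *Socs3*, -0.245 to 0.9255 for *Lif*, -0.0467 to 1.27 for *Ptx3*, -0.0131 to 1.08 for *Cxcl10* and -0.0267 to 0.619 for *Hspb1*. Within females *Gfap* ran from -0.181 to 0.285 and *Serpina3n* from -0.005945 to 0.595, within males *Gfap* from -0.0457 to 0.247, and the difference between the sexes from -0.185 to 0.2815 for *Gfap* and from -0.342 to 0.272 for *Serpina3n*. Without both libraries of conflicting sex these values were -0.181 for *Gfap* and -0.005945 for *Serpina3n* in females, -0.0457 for *Gfap* in males, and 0.135 for *Gfap* and 0.0407 for *Serpina3n* for the difference, which was 0.0256 for *Gfap* after quantile normalization. Arms left with 1 library were assumed to vary like the others. Depth is unknown in TPM, so genes under 1 TPM cannot be given a counting error. Outside male cKO replicate 3 these included *Ptx3* and *Ccl2* in every library and *Cxcl10* in most.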
